A study of Mus musculus with 9 samples.

Results

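The genes described here encode proteins of the mitochondrial ribosome and were taken by name: every gene whose single annotated symbol begins with Mrpl or Mrps and a number, with 1 gene of that pattern not analysed here. There were 75 such genes of 18194 genes with 1 symbol on the arrays, 47 named Mrpl and 28 named Mrps, and all 75 were among the 12826 genes tested. The study asked about Sox4 in acute myeloid leukaemia with mutant Cebpa, the gene of the transcription factor C/EBPα that granulocyte formation needs. Expression was measured on 9 Affymetrix mouse arrays of sorted haematopoietic cells. K/L leukaemic mice, which carry mutations in both alleles of Cebpa, gave 3 arrays, Sox4 overexpressing leukaemic mice gave 3, and wild type C57/BL6 mice gave 3. The labels give every mouse as C57/BL6, aged 2 to 4 months, with blood as the tissue. How Sox4 was overexpressed, and in which cells, is not given in the sources used here. The sorted FrII cells lacked lineage markers and Sca-1, carried c-Kit and had low or positive Mac1; the names of the leukaemic samples add a CD45.1-negative, CD45.2-positive gate. Each array is numbered for 1 mouse in its description while its title speaks of mice, so n counts arrays. The p-values set a difference of group means against the spread between these arrays.

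Mitochondria make part of their own respiratory chain. The mitochondrial ribosome translates the messenger RNAs of the mitochondrial genome, all of which code for subunits of the oxidative phosphorylation complexes, while its own proteins are made from nuclear genes in the cytosol and imported. Genes named Mrpl encode proteins of the large subunit, which forms peptide bonds, and genes named Mrps those of the small subunit, which reads the messenger. Some of these proteins have counterparts in bacterial ribosomes and others were acquired in mitochondria. Inhibitors of mitochondrial translation are known to impair the growth of acute myeloid leukaemia cells. Some names mislead: the product of Mrps18a sits in the large subunit, that of Mrpl58 has the catalytic motif of a release factor, and that of Mrps36 is a component of the oxoglutarate dehydrogenase complex.

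Values are log2 intensities. A change is the difference of 2 group means on that scale, given ± its standard error from limma, and a gene was called at an adjusted p under 0.05. All 75 genes lay above the 40th percentile of all probe sets on each of the 9 arrays, so none rested on signal near the floor of 3. Their median SD between arrays of a group was 0.07 in K/L, 0.08 in Sox4 and 0.11 in wild type cells. Array medians over all probe sets ran between 5.43 and 5.55. Wild type array 3 stood apart, with a Pearson r of 0.977 and 0.979 to the other wild type arrays, where other replicate pairs reached at least 0.991; within a group, 0 of the 75 genes differed over 2-fold between 2 arrays, including those with this array. Of the sort markers, Kit averaged 9.22 in K/L, 9.18 in Sox4 and 9.17 in wild type cells, while Itgam, which encodes Mac1, was below the 40th percentile in K/L and Sox4 cells and averaged 3.83 and 4.20 there and 4.91 in wild type cells. Ptprc, which encodes CD45, was lower in both leukaemias than in wild type cells, with changes of -0.44 ± 0.10 in K/L and -0.49 ± 0.10 in Sox4 cells. As readings of RNA quality, the 3' to 5' ratios of 2 control genes differed in what they showed. The Gapdh ratio differed by group, at 1.93 to 2.01 on K/L, 2.22 to 2.44 on Sox4 and 2.68 to 2.91 on wild type arrays. The actin ratio overlapped between groups, at 0.866 to 0.913 on K/L, 0.881 to 0.915 on Sox4 and 0.885 to 0.976 on wild type arrays. The summed linear signal of 4 late neutrophil markers ranged over arrays between 134.7 and 233 in K/L cells, between 3443 and 3896 in Sox4 cells, and between 15040 and 20380 in wild type cells. S100a8 and S100a9 carry that sum, and in Sox4 against wild type cells they changed by -2.19 and -2.62, while the other markers of the list, Camp and Ltf, rose by 1.19 and 2.33. In no group did any listed marker sit at the floor throughout, but some lay below the 40th percentile on every array of a group. In each group this held for 1 of 3 erythroid and 2 of 4 T and NK cell markers. It also held for 1 or 2 megakaryocyte and B cell markers, by group. The sum of 4 megakaryocyte markers reached 1162 to 1904 in Sox4 cells, with 179.7 to 183.6 in K/L cells and 162.8 to 260.6 in wild type cells. Pf4 carries the Sox4 sum, with a change of 6.69 from wild type, while Gp9 and Itga2b rose by 0.50 and 0.73. Ppbp did not pass the filter on low values. For 3 monocyte markers the sum was 1263 to 1480 in K/L cells and 3166 to 3458 in Sox4 cells. In wild type cells it was 897.5 to 1040. Against wild type, 1 of the 3 was called higher in K/L cells, with changes from -0.10 to 2.51, and 3 in Sox4 cells. Between K/L and Sox4 cells, 1 was called higher and 2 lower. Summed signal of 3 B cell markers was 333.7 to 367.5 in K/L and 373.2 to 455.1 in Sox4 cells. It was 135.7 to 157.4 in wild type cells. The B cell markers went both ways in Sox4 against wild type cells, with Cd79b at 1.90 and Cd79a at -0.63. Myeloid progenitor markers (4 genes) summed to 28780 to 30340 in K/L cells, 40340 to 40940 in Sox4 cells and 34710 to 37310 in wild type cells; of these, Elane changed by -4.04 and Prtn3 by 0.52 in K/L against wild type cells. The sum of 3 erythroid markers was 106.6 to 118.3 in K/L cells, 173.8 to 180.8 in Sox4 cells and 91.33 to 130.3 in wild type cells, and Klf1 among them rose by 1.11 in Sox4 cells. For 4 T and NK cell markers the sum was 118.9 to 133.8 in K/L cells, 123.8 to 130.9 in Sox4 cells and 103.6 to 118.5 in wild type cells. The part of RNA quality and of cell make-up in the changes below was not tested, and a smaller share of one cell type cannot be told apart from less RNA per cell.

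Promoter windows show what many of these genes share in sequence. RefSeq windows of assembly GRCm38.p6, from 250 bases before to 50 after the start of a gene, were matched by symbol for 66 of the 75 genes. No window was matched for Mrpl4, Mrpl13, Mrpl15, Mrpl19, Mrpl38, Mrpl54, Mrps28, Mrps34 and Mrps35. Motifs known from promoters of nuclear genes for mitochondrial proteins were searched on both strands: GCGCANGCG for NRF1, CCGGAAG for ETS factors such as GABP, AAGATGGCG for YY1 and CACGTG, the E-box of Myc and its relatives. The windows printed are those of Mrpl52, Mrps26, Mrpl33 and Mrps11. By the probe sets that stand for the genes, Mrpl52 had the highest rise and Mrpl33 the largest fall. Mrps26 was a further riser with matches to 2 motifs, and the Mrps11 window overlaps that of Mrpl46 by 141 bases. In the order named, the printed windows lie at chr14:54426659-54426958, chr2:130563507-130563806, chr5:31613701-31614000 and chr7:78782881-78783180, each on the plus strand. Capitals mark the matches.
Mrpl52: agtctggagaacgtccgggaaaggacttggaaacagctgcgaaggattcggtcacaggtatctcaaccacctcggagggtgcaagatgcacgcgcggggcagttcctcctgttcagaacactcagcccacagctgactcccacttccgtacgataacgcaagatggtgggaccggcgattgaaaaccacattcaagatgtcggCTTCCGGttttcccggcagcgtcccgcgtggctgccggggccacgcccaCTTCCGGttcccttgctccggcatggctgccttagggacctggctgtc
Mrps26: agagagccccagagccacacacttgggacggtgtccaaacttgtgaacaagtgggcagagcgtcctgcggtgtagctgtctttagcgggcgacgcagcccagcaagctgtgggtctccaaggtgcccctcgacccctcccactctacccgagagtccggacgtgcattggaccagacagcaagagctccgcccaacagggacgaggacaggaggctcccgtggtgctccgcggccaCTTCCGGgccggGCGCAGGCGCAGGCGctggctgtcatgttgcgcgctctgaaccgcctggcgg
Mrpl33: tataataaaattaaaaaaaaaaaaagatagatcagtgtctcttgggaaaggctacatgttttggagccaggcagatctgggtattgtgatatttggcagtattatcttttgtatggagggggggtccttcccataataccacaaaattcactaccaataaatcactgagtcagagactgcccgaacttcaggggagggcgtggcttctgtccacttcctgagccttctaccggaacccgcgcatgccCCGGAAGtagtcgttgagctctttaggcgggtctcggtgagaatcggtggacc
Mrps11: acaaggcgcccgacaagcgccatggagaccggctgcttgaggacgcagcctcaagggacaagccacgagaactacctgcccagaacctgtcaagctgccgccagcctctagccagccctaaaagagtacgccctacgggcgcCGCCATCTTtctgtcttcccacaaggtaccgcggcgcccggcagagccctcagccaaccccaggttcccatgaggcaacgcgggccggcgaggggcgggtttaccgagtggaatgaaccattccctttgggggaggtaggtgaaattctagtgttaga

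The ETS motif was present in 25 of the 66 genes (37.9%), against 9.93% of all 27025 genes with a window. The NRF1 motif was in 15 of them (22.7%, against 7.03% of all genes), the YY1 motif in 8 (12.1%, against 1.64%) and the E-box in 5 (7.58%, against 8.09%). Median GC content was 58.8% over the members' windows and 52.7% over all windows. The 27025 genes include genes that were not tested here, and the shares over tested genes alone are not given. These shares are a description of the windows and not of factor binding. The NRF1 and YY1 motifs were shortened after a first search with longer forms, whose shares are not given here. Both Mrpl52, the highest riser, and Mrpl33, the largest fall, held an ETS motif. Among members higher in K/L than in wild type cells 7 of 18 with a window held the ETS motif, among those lower 4 of 10 and among those not called 14 of 38. In the Sox4 comparison with wild type, these counts were 10 of 23, 1 of 4 and 14 of 39. The NRF1 motif was in 6 of 18 members higher in K/L than in wild type cells, 3 of 10 lower and 6 of 38 not called. For Sox4 against wild type it was in 7 of 23, 1 of 4 and 7 of 39, and for K/L against Sox4 in 1 of 3 higher, 0 of 9 lower and 14 of 54 not called. These differences between calls were not tested.

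In K/L cells, mitochondrial ribosomal protein genes moved in both directions and mostly by little. Of the 75, 21 were higher and 11 lower than in wild type cells, so that 42.7% were called, against 50.6% of all tested genes (29.0% higher and 21.6% lower). Mrpl52 changed by at least 2-fold, 1 member of 75, where 16.6% of all tested genes were called at that size. The change was smaller than 0.5 on the log2 scale in 61 members (81.3%), against 61.9% of all tested genes. The median change was 0.06, as over all tested genes, and it was 0.02 without wild type array 1 and 0.11 without wild type array 3. Among Mrpl genes 13 of 47 rose and 6 fell, and among Mrps genes 8 of 28 rose and 5 fell. Of 46 members with a bacterial counterpart 14 rose and 9 fell, and of the 29 others 7 rose and 2 fell. Centring the arrays on their medians gave 25 higher and 7 lower, and taking the mean of all probe sets of a gene gave 18 higher and 19 lower. The share of all tested genes called under such other settings is not given here or below. The K/L and wild type arrays did not overlap for 27 members that were higher and 15 that were lower, where 58.1% of all tested genes had groups apart.

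**Figure D1:**
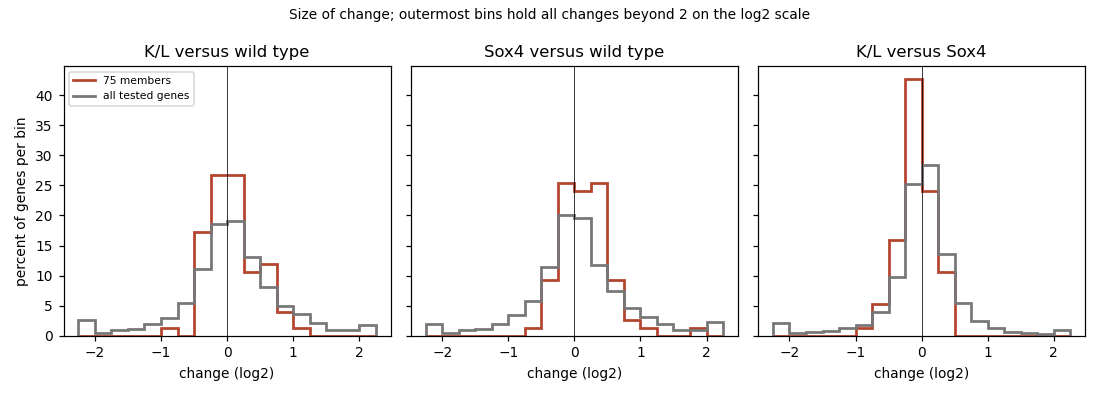
Percent of genes per bin of change (log2 scale, bins of 0.25) for the 75 mitochondrial ribosomal protein genes (red) and all 12826 tested genes (grey), in the 3 comparisons. The members' distributions are narrower than those of all genes, with changes from -0.95 to 1.05 for K/L versus wild type, -0.51 to 1.86 for Sox4 versus wild type and -0.81 to 0.44 for K/L versus Sox4.

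By the probe sets that stand for the genes, Mrpl52, which encodes a large subunit protein without a bacterial counterpart, rose most in K/L cells. It measured 9.87, 9.77 and 9.98 on the K/L arrays, against 8.84, 9.12 and 8.52 on the wild type arrays. The groups did not overlap, and the change was 1.05 ± 0.14 (2.07-fold, adjusted p = 0.000219). Mrps34, a small subunit gene specific to mitochondria, measured 8.60, 8.89 and 8.78 in K/L cells, against 7.75, 7.79 and 7.81 in wild type cells. Every K/L array was above every wild type array, with a change of 0.98 ± 0.11 (adjusted p = 5.85e-05). Mrps26, another small subunit gene of mitochondrial origin, measured 10.13, 10.23 and 10.05 in K/L cells, against 9.49, 9.42 and 8.98 in wild type cells. Here the lowest wild type value was that of array 3, and the change was 0.84 ± 0.14 (adjusted p = 0.000697).

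The exit of the ribosomal tunnel, where the new peptide leaves and is inserted into the inner membrane, is lined by products of Mrpl17, Mrpl22, Mrpl23, Mrpl24, Mrpl32 and Mrpl47. Mrpl17 measured 10.42, 10.50 and 10.38 in K/L cells, against 9.78, 9.63 and 9.59 in wild type cells, and rose by 0.76 ± 0.09 (adjusted p = 9.01e-05). Mrpl23 rose by 0.64 ± 0.10, and Mrpl32 fell by 0.24 on the log2 scale. Mrpl22, Mrpl24 and Mrpl47 were not called, with changes of -0.31, -0.20 and -0.27. Genes of one site of the ribosome were thus called in both directions. Mrpl32 alone was called lower with the probe set that stands for the gene. Another probe set of Mrpl47, of mean 5.59, was called lower (-0.54). Calls in both directions were also seen at the stalk, which recruits translation factors. Whether the changes of genes of one site differ from each other was not tested. Mrpl12, whose product forms the flexible stalk and also binds the mitochondrial RNA polymerase, measured 9.28, 9.31 and 9.35 in K/L cells, against 8.73, 8.62 and 8.71 in wild type cells (change 0.63 ± 0.10, adjusted p = 0.000503). Its anchor gene Mrpl10 rose by 0.51 ± 0.10. Mrpl11, of the stalk base, averaged 10.02 ± 0.04 in K/L cells and 10.50 ± 0.09 in wild type cells (SD, n = 3 each), and changed by -0.48 ± 0.09. A further probe set of Mrpl11, of higher mean but of a kind that can match other transcripts, changed by -0.25 and was not called. Another of that kind (-0.28) and a probe set of mean 5.38 (-1.04) were called lower.

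Further rises in K/L cells were those of Mrpl51 (0.69 ± 0.10), Mrps11 (0.64 ± 0.14), Mrpl2 (0.56 ± 0.09), whose product lies at the peptidyl transferase centre, and Mrpl14 (0.53 ± 0.11), whose product takes part in joining of the subunits. Mrps6, a small subunit gene with a bacterial counterpart, rose by 0.51 ± 0.09 and Mrps16 by 0.50 ± 0.10. The other rises lay between 0.29 and 0.48 and were those of Mrpl35, Mrps28, Mrpl43, Mrpl4, Mrps25, Mrpl16, Mrpl57 and Mrps7.

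Mrpl33, which encodes a small large-subunit protein with a bacterial counterpart, had the largest fall in K/L cells by the probe sets that stand for the genes. It measured 9.30, 9.13 and 9.49 on K/L arrays, against 10.48, 10.24 and 10.05 on wild type arrays. All K/L values lay below all wild type values, and the change was -0.95 ± 0.14 (adjusted p = 0.000355). The falls of Mrpl13 and Mrpl20 were -0.48 ± 0.10 each, that of Mrps10, a gene of the head of the small subunit, was -0.45 ± 0.10, and that of Mrps22 was -0.40 ± 0.10. Mrpl9, Mrps18c, Mrps36, Mrps21 and Mrpl32 changed by -0.40 to -0.24. Without K/L replicate 2, 6 members were called lower, and without K/L replicate 1, 7, in place of 11. Mrpl9, Mrps21 and Mrps36 lost their call in both cases. The members of lowest mean beside Mrpl14 were Mrpl54 and Mrpl38, and neither was called against wild type with the probe set that stands for it. Another probe set of Mrpl38 was called higher in K/L (0.49) and Sox4 cells (0.25). Another of Mrpl54, of mean 4.95, was called lower in Sox4 cells (-0.43). Mrpl54 averaged 6.60 ± 0.33 in K/L, 6.90 ± 0.10 in Sox4 and 6.52 ± 0.25 in wild type cells (SD, n = 3 each). Mrpl38 averaged 7.69 ± 0.20, 7.39 ± 0.28 and 7.73 ± 0.45 in K/L, Sox4 and wild type cells, with wild type array 3 at 8.25 above the other 8 arrays. Of members with a role outside peptide synthesis, Mrpl58 changed by -0.31 ± 0.13 and was not called. Its other probe set, of mean 5.10, was called lower in K/L (-1.37) and Sox4 cells (-1.48) against wild type. Mrpl44, whose product resembles an RNase III, and Mrpl45, whose product anchors the ribosome to the inner membrane, were not called in either leukaemia against wild type.

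**Figure D2:**
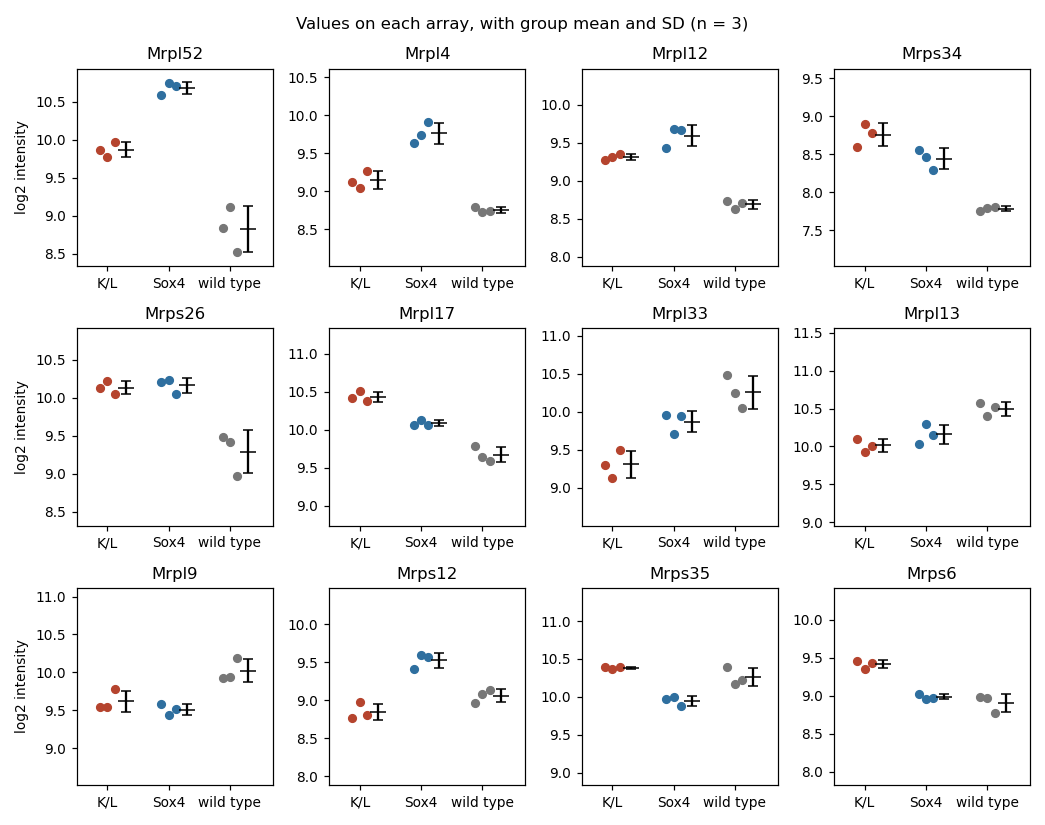
Log2 intensity on each array for 12 mitochondrial ribosomal protein genes in K/L, Sox4 and wild type cells (n = 3 arrays each); dots are arrays, and bars give the group mean and SD. All panels span the same range, so that Mrpl52, highest in Sox4 cells at 10.59 to 10.75, can be set against the small steps of genes such as Mrps35.

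In Sox4 cells most of the calls were rises. Of the 75 genes, 26 were higher and 7 lower than in wild type cells, 44% of the members, against 47.8% of all tested genes (26.7% higher and 21.1% lower). Mrpl52 and Mrpl4 were called at 2-fold or more, 2 of 75, where the share over all tested genes was 15.6%. Changes under 0.5 made up 84% of the members, against 63.0% of all tested genes. The members' median change was 0.11, against 0.03 over all tested genes, and 0.05 with the mean of all probe sets of a gene. Mrpl genes had 15 rises and 5 falls among 47, and Mrps genes 11 rises and 2 falls among 28. Members with a bacterial counterpart rose in 16 of 46 cases and fell in 5, the others in 10 and 2 of 29. Groups were apart for 33 higher and 11 lower members, against 56.2% of all tested genes in either direction. Without wild type array 3, 30 members were called higher, 6 were called lower, and the median was 0.19.

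By the probe sets that stand for the genes, the rise of Mrpl52 was the largest of any member in any comparison. Another probe set of Mrpl19 rose more, by 2.23 in Sox4 and 2.94 in K/L cells against wild type. Mrpl52 measured 10.59, 10.75 and 10.70 on Sox4 arrays, against 8.84, 9.12 and 8.52 on wild type arrays. The change was 1.86 ± 0.14 (3.62-fold, adjusted p = 5.64e-06). Every Sox4 array was above every wild type array. Mrpl4, whose product lines the polypeptide tunnel, measured 9.64, 9.74 and 9.91 in Sox4 cells, against 8.79, 8.73 and 8.74 in wild type cells. The 3 wild type arrays were close together, and the change was 1.01 ± 0.10 (2.02-fold, adjusted p = 3.52e-05). The stalk gene Mrpl12 measured 9.43, 9.68 and 9.67 in Sox4 cells, against 8.73, 8.62 and 8.71 in wild type cells (change 0.91 ± 0.10, adjusted p = 4.94e-05). Mrps26 measured 10.21, 10.23 and 10.05 in Sox4 cells, against 9.49, 9.42 and 8.98 in wild type cells, a change of 0.87 ± 0.14. For these genes, too, the groups did not overlap.

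Mrpl41, a large subunit gene of mitochondrial origin, measured 10.72, 10.82 and 10.83 in Sox4 cells, against 10.08, 9.99 and 10.14 in wild type cells (change 0.72 ± 0.10, adjusted p = 0.000214). Mrps34 rose by 0.66 ± 0.11, Mrpl14 and Mrps16 by 0.63 ± 0.11 and 0.63 ± 0.10, and Mrpl42 by 0.60 ± 0.12. Mrps12, whose product belongs to the decoding centre and is the counterpart of the bacterial protein in which streptomycin resistance arises, measured 9.41, 9.60 and 9.57 in Sox4 cells, against 8.97, 9.08 and 9.13 in wild type cells (change 0.47 ± 0.10, adjusted p = 0.00376). All Sox4 values were above all wild type values for Mrps12. Of the genes at the tunnel exit, Mrpl23 rose by 0.50 ± 0.10 and Mrpl17 by 0.41 ± 0.09, and Mrpl22, Mrpl24, Mrpl32 and Mrpl47 were not called. Mrps18b rose by 0.34 ± 0.11 while its paralogues Mrps18a and Mrps18c changed by -0.09 and -0.18 and were not called. The other rises, between 0.29 and 0.52, were those of Mrps11, Mrpl2, Mrpl51, Mrpl16, Mrps28, Mrpl10, Mrpl43, Mrps27, Mrps7, Mrps15, Mrpl39, Mrps25 and Mrpl27.

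Falls in Sox4 cells were small. Mrpl9 changed by -0.51 ± 0.11 (adjusted p = 0.00431), with 9.58, 9.44 and 9.51 in Sox4 cells, against 9.92, 9.94 and 10.19 in wild type cells. Mrpl33 measured 9.96, 9.71 and 9.94 in Sox4 cells, against 10.48, 10.24 and 10.05 in wild type cells (change -0.39 ± 0.14, adjusted p = 0.0447). The groups of Mrpl33 did not overlap, but the highest Sox4 and the lowest wild type value lay close together. Mrpl13, Mrps35, Mrpl19, Mrps31 and Mrpl11 changed by -0.34 to -0.26. With the mean of all probe sets the change of Mrpl19 turned to 0.31, and Mrpl11 lost its call under several settings, among them arrays centred on their medians. The count of 7 falls was 1 without Sox4 replicate 3, 2 without wild type replicate 1, and 4 without Sox4 replicate 1 or 2.

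**Figure D3:**
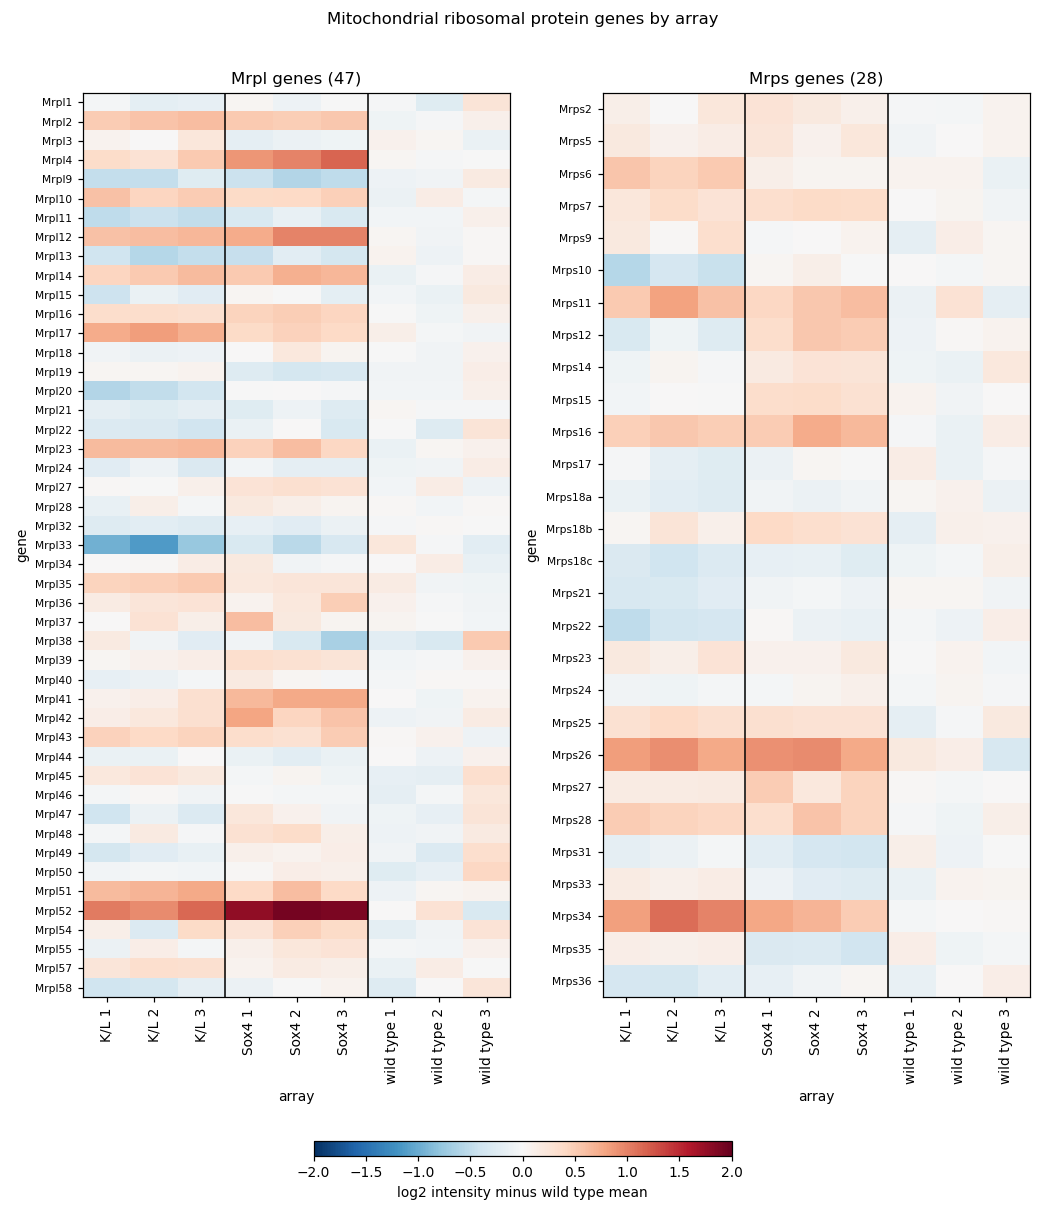
Log2 intensity minus the wild type mean for each of 75 genes (rows, in order of number) on each of 9 arrays (columns), with Mrpl genes on the left and Mrps genes on the right; red is above and blue below the wild type mean. Rows such as Mrpl52, Mrpl12, Mrps26 and Mrps34 are red on all 6 leukaemic arrays and Mrpl33 is blue on all 6, while most rows stay pale.

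Both comparisons with wild type use the same 3 wild type arrays, so their values are set side by side without a measure of likeness. The direct comparison of the leukaemias shows where the K/L and Sox4 cells differ. Of the 75 genes, 5 were higher and 10 lower in K/L than in Sox4 cells, or 20% of the members, against 28.9% of all tested genes (14.9% higher and 14.0% lower). The 5 higher calls became 2 without Sox4 replicate 3, and 3 without K/L replicate 2 or 3 or Sox4 replicate 2. At least 2-fold calls numbered 0 among the members and made up 9.08% of all tested genes. The median change was -0.11, against 0.03 over all tested genes. Centring the arrays on their medians gave 8 higher and 8 lower. Groups were apart for 13 higher and 28 lower members, against 51.1% of all tested genes in either direction. With the K/L and Sox4 arrays fitted alone, 7 were higher and 17 lower. The share of all tested genes called in that fit is not given, so these counts are not set against it.

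Mrpl52 was lower in K/L than in Sox4 cells, at 9.87, 9.77 and 9.98, against 10.59, 10.75 and 10.70 (change -0.81 ± 0.14, adjusted p = 0.00218). For Mrps12 the values were 8.76, 8.97 and 8.81 in K/L cells, against 9.41, 9.60 and 9.57 in Sox4 cells (change -0.68 ± 0.10, adjusted p = 0.000719). The wild type values of Mrps12, 8.97 to 9.13, lay below those of Sox4 cells and met the K/L range at its upper end. Mrpl4 measured 9.12, 9.05 and 9.27 in K/L cells, against 9.64, 9.74 and 9.91 in Sox4 cells (change -0.62 ± 0.10, adjusted p = 0.00154). Mrpl33 and Mrpl41 changed by -0.56 ± 0.14 and -0.54 ± 0.10. Mrps10, at -0.50 ± 0.10, and Mrpl20, at -0.47 ± 0.10, were not called in Sox4 cells against wild type, where they changed by 0.05 and -0.01. Mrpl42, Mrps15 and Mrps22 changed by -0.38 to -0.32. The calls of Mrpl42 and Mrps22 were lost under several other settings, among them each left-out array for Mrps22.

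Higher in K/L than in Sox4 cells were Mrps35, Mrps6, Mrpl19, Mrpl17 and Mrps33. Mrps35, a small subunit gene of mitochondrial origin, averaged 10.38 ± 0.02 in K/L cells and 9.95 ± 0.06 in Sox4 cells (SD, n = 3 each; change 0.44 ± 0.09, adjusted p = 0.00604). The groups did not overlap. Mrps6 measured 9.46, 9.35 and 9.43 in K/L cells, against 9.03, 8.96 and 8.97 in Sox4 cells (change 0.43 ± 0.09, adjusted p = 0.00667), and its second probe set changed by 0.40. Mrpl19, Mrpl17 and Mrps33 changed by 0.36, 0.35 and 0.34.

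Mrps11 and Mrpl46 share a promoter region, with starts 42 bases apart on opposite strands. The YY1 match of the Mrps11 window printed above lies outside the bases that both windows share, and the Mrpl46 window held 0 matches. Mrps11, a gene of the small subunit platform, measured 8.56, 8.84 and 8.62 in K/L cells, 8.44, 8.57 and 8.64 in Sox4 cells and 7.92, 8.31 and 7.86 in wild type cells. With this probe set both leukaemias were above wild type on every array. With the mean of its probe sets the Sox4 change of Mrps11 turned to -0.029, and its other probe set fell in Sox4 cells (-0.58). Mrpl46, a large subunit gene, measured 9.30, 9.37 and 9.28 in K/L cells, 9.34, 9.30 and 9.31 in Sox4 cells and 9.16, 9.31 and 9.57 in wild type cells. Its changes from wild type were -0.03 ± 0.11 in both, and its groups overlapped. Whether the 2 genes differ in their change was not tested.

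Of the 75 genes, 42 had more than 1 probe set, and these did not always move together. Among members with several probe sets past the filter on low values, 12 were called in K/L against wild type, of which 7 had all such probe sets moving the same way; for Sox4 against wild type these counts were 13 and 8. The rise of Mrpl52 was seen with 3 probe sets, which changed by 1.05, 1.15 and 1.38 in K/L cells and by 1.86, 1.89 and 2.06 in Sox4 cells against wild type. Mrpl41 rose with both of its probe sets past the filter in Sox4 cells, by 0.72 and 0.54. The 3 probe sets of Mrpl13 past the filter fell in K/L cells, with changes of -0.66 to -0.31, and in Sox4 cells they changed by -0.43 to -0.22, of which the smallest was not called. Mrpl19 was discordant: the probe set that stands for the gene changed by 0.05 in K/L and -0.31 in Sox4 cells, while another averaged 9.65 in K/L, 8.93 in Sox4 and 6.70 in wild type cells and so changed by 2.94 and 2.23. Mrps5, a small subunit gene, had probe sets called in both directions in each leukaemia, with changes from -1.02 to 0.44 in K/L and from -0.58 to 0.45 in Sox4 cells. Mrpl15, Mrpl17 and Mrps11 also had probe sets called both ways in Sox4 cells. For Mrpl17 the probe set that moved down averaged 5.38 in Sox4 and 6.07 in wild type cells, and for Mrps11 it averaged 4.69 and 5.27. Which transcript each probe set reads is not given in the sources used here.

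**Figure D4:**
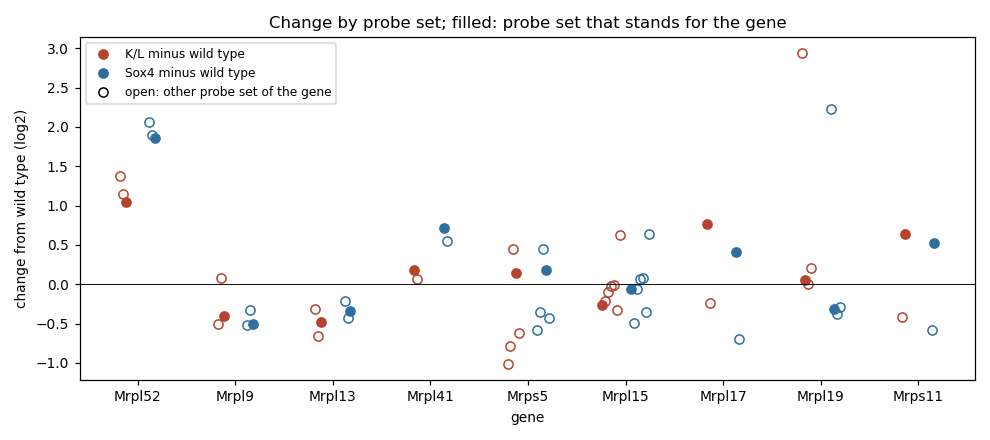
Change from wild type (log2) by probe set for 9 genes, in K/L (red) and Sox4 cells (blue); filled points are the probe set that stands for the gene, and open points are its other probe sets past the filter on low values. Probe sets of Mrpl52 lie together at 1.05 to 1.38 and 1.86 to 2.06, while those of Mrps5 and Mrpl19 lie on both sides of 0.

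Genes that act with the mitochondrial ribosome were listed with earlier results of these data known. Among 4 ribosomal protein genes with other names, Dap3 and Gadd45gip1 rose in both leukaemias against wild type, by 0.47 ± 0.12 and 0.63 ± 0.13 in K/L and 0.59 ± 0.12 and 0.73 ± 0.13 in Sox4 cells. Ptcd3 fell in both, with changes of -0.43 ± 0.11 in K/L and -0.56 ± 0.11 in Sox4 cells, and Chchd1 fell in K/L cells (-0.46 ± 0.12). A list of 13 genes held translation factors and the membrane protein genes Letm1 and Oxa1l. Of these 13, 4 rose and 1 fell in K/L, and 6 rose and 1 fell in Sox4 cells. Calls thus made up 38.5% and 53.8% of the list. Over all tested genes, 50.6% were called in K/L and 47.8% in Sox4 cells against wild type. Tufm, the elongation factor that brings aminoacyl-tRNA, averaged 8.53 in K/L, 9.16 in Sox4 and 8.43 in wild type cells and rose by 0.73 ± 0.15 in Sox4 cells. Guf1, the gene of a back-translocating elongation factor, changed by -0.87 ± 0.09 in K/L and -0.98 ± 0.09 in Sox4 cells. Letm1, an inner membrane gene, rose by 1.11 ± 0.18 and 1.13 ± 0.18.

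Ribosome assembly and rRNA modification genes had 10 rises and 5 falls among 25 in K/L cells, and 8 rises and 7 falls in Sox4 cells, or 60% called in each, against 50.6% and 47.8% of all tested genes. Rbfa, the gene of an assembly factor of the small subunit, rose by 1.01 ± 0.12 in K/L and 0.88 ± 0.12 in Sox4 cells, and Mpv17l2, which acts in ribosome assembly at the inner membrane, by 0.95 ± 0.15 and 1.35 ± 0.15. The assembly GTPase gene Gtpbp10 changed by -0.76 ± 0.14 and -0.53 ± 0.14. Of 15 tested aminoacyl-tRNA synthetase genes 3 rose and 2 fell in K/L, and 5 rose and 1 fell in Sox4 cells, or 33.3% and 40% called, against 50.6% and 47.8%. Vars2 rose by 0.77 ± 0.14 in K/L cells, and Cars2 by 1.04 ± 0.16 in Sox4 cells, while Yars2 changed by -0.67 ± 0.11 and -0.41 ± 0.11 in K/L and Sox4 cells.

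Genes for mitochondrial DNA maintenance and transcription had 4 rises and 5 falls among 14 in each leukaemia, or 64.3% called, against 50.6% of all tested genes in K/L and 47.8% in Sox4 cells. Polrmt, the mitochondrial RNA polymerase that Mrpl12 binds, measured 7.49, 7.49 and 7.63 in K/L cells, 7.51, 7.77 and 7.31 in Sox4 cells and 6.06, 6.67 and 5.55 in wild type cells. All leukaemic arrays were above all wild type arrays, with changes of 1.44 ± 0.24 and 1.43 ± 0.24. Top1mt, the mitochondrial topoisomerase gene, rose by 1.53 ± 0.11 in K/L and 1.03 ± 0.11 in Sox4 cells, while Tfam, which packages mitochondrial DNA, changed by 0.05 ± 0.15 and -0.04 ± 0.15 and was not called. Protein import genes had 6 rises and 4 falls among 24 in K/L, and 6 rises and 1 fall in Sox4 cells, or 41.7% and 29.2% called, against 50.6% and 47.8%. Among them was Tomm40, the outer membrane pore gene, at 1.07 ± 0.21 and 0.91 ± 0.21.

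Of 12 tested regulators of nuclear genes for mitochondria, 4 rose and 2 fell in K/L and 7 rose and 1 fell in Sox4 cells, or 50% and 66.7% called, against 50.6% and 47.8%. Pprc1, a coactivator of the PGC family, averaged 8.64 in K/L, 8.75 in Sox4 and 7.30 in wild type cells and rose by 1.35 ± 0.15 and 1.45 ± 0.15. Its relative Ppargc1b differed between the leukaemias: it measured 4.74, 4.77 and 4.10 in K/L cells, 7.30, 7.05 and 7.14 in Sox4 cells and 4.81, 4.30 and 4.32 in wild type cells. The change was 2.69 ± 0.20 for Sox4 against wild type (adjusted p = 4.25e-06) and -2.63 ± 0.20 for K/L against Sox4. The K/L and wild type values lay below the 40th percentile of their arrays, so the size of this difference rests on little signal there. Nrf1, whose product binds the first motif searched above, rose by 0.39 ± 0.11 and 0.37 ± 0.11. Gabpb1, a subunit gene of the ETS factor GABP, changed by -0.97 ± 0.13 and -0.95 ± 0.13, while Gabpa, the gene of its DNA-binding subunit, changed by -0.06 and -0.12 and was not called. Between K/L and Sox4 cells, 28.9% of all tested genes were called. Calls there numbered 0 of 4 ribosomal proteins with other names and 1 of the 13 genes listed with translation factors (Tufm, -0.62 ± 0.15). They also numbered 2 of 25 assembly genes, 2 of 15 synthetases, 3 of 14 mitochondrial DNA genes, 2 of 24 import genes and 2 of 12 regulators.

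**Figure D5:**
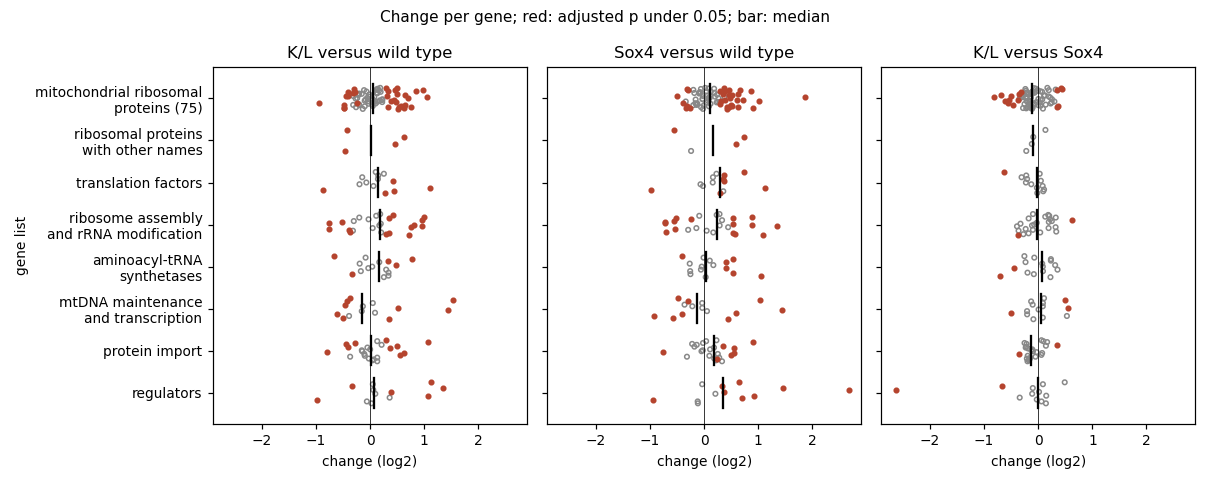
Change per gene (log2) in the 3 comparisons for the 75 mitochondrial ribosomal protein genes and 7 lists of genes that act with them; each point is a gene, red where its adjusted p was under 0.05, and the bar is the median of the list. The points of the ribosomal protein genes crowd near 0, with medians of 0.06, 0.11 and -0.11, while single genes such as Ppargc1b (2.69 for Sox4 versus wild type) lie far out.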

How the data were processed

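Per the labels' protocols, biotinylated cRNA from total RNA of sorted FrII cells was read on Affymetrix arrays. The intensity table deposited by the authors covers 45101 probe sets; its values are linear and none is below 8. The submitters' processing notes name RMA, without a version. Groups came from the sample titles. Values were log2 transformed. A platform annotation gave 34958 probe sets 1 symbol, and all others were dropped, which removed 2 genes of the mitochondrial ribosome. Each gene was represented by the probe set of highest mean over 9 arrays, with _x_at probe sets used if a gene had no other. Genes with at least 3 arrays above the 40th percentile of that array, 12826 in all, were tested with limma 3.58.1 (R 4.3.3; lmFit and eBayes, group as the only term, all 9 arrays in 1 fit, 6 residual and 3.71 prior degrees of freedom), with Benjamini-Hochberg adjustment over all tested genes. The fit was tested on simulated data. A permutation test of 3 against 3 arrays cannot go below 0.1 and was not used. Names and chromosomes were taken from RefSeq (GRCm38.p6). By rule, the printed genes are the largest rises and falls past the threshold per comparison (up to 10 each), the 3 members of highest and of lowest mean, members of special role, members with discordant probe sets and up to 5 genes per companion list of smallest p, of which not all were printed; the other members named complete a count, a site of the ribosome or a shared promoter, and these and Tfam, Nrf1 and Gabpa were chosen after their values were seen. The members and lists were chosen with earlier results of these data known. Alternatives covered scaling, filter, probe set choice, samples in the fit, variance trend, a replicate block and each array left out; allowing _x_at probe sets was added after the data were seen. Same-numbered arrays did not deviate together (correlations of -0.02 to 0.08). Such correlations cannot exclude a shared litter or day, which the labels do not give, and the main fit did not pair samples. Promoter motifs for NRF1 and YY1 were searched as shortened cores, chosen after a first search with longer forms.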

Additional observations from a re-analysis of the deposited data

Results flagged for a closer look

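The change from wild type differed between the 2 leukaemias for 15 members, by the direct test of K/L minus Sox4 in limma at an adjusted p under 0.05. These were 20% of the members, against 28.9% of all tested genes. The difference in change (log2) was 0.44 for Mrps35, 0.43 for Mrps6, 0.36 for Mrpl19, 0.35 for Mrpl17 and 0.34 for Mrps33. It was -0.81 for Mrpl52, -0.68 for Mrps12, -0.62 for Mrpl4, -0.56 for Mrpl33 and -0.54 for Mrpl41. Smaller differences were -0.50 for Mrps10, -0.47 for Mrpl20, -0.38 for Mrpl42, -0.36 for Mrps15 and -0.32 for Mrps22. Groups of 3 arrays are too small for a test of single outlying arrays.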

How the results depend on the processing

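The rises of Mrpl52, Mrps34 and Mrps26 against wild type, and the difference of Mrpl52, Mrps12 and Mrpl4 between the leukaemias, kept their direction and their side of the threshold under every alternative run. Against wild type, members lower in K/L cells numbered 11, but 7 with each array centred on its median and 19 with the mean of all probe sets. Members lower in Sox4 cells numbered 7, but 4 with those 2 groups fitted alone, and the median change in Sox4 cells was 0.048 in place of 0.11 with the mean of all probe sets. Between K/L and Sox4, 8 in place of 5 were higher with centred arrays, and 17 in place of 10 were lower with the 2 groups alone. With the mean of all probe sets, the Sox4 changes of Mrps11 (-0.029) and Mrpl19 (0.31) turned their direction; the cause was not tested. With a replicate block the calls were 21 higher and 11 lower for K/L, 24 and 6 for Sox4, each against wild type, and 5 and 8 for K/L against Sox4; the calls of Mrpl11 in Sox4 cells and of Mrpl42 and Mrps22 between the leukaemias were lost. Leaving out 1 array at a time gave 18 to 22 higher, 6 to 11 lower and a median of 0.02 to 0.11 for K/L versus wild type. It gave 23 to 30 higher, 1 to 6 lower and 0.11 to 0.19 for Sox4 versus wild type, and 2 to 5 higher, 7 to 9 lower and -0.12 to -0.10 for K/L versus Sox4. With _x_at probe sets allowed, an alternative chosen after seeing the data, Mrpl11 lost its call in K/L cells. Counts under these alternatives are given without the share over all tested genes, which can also shift with the setting. The number of arrays limits the precision.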
